A study of Mus musculus with 9 samples.

Results

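Genes of the autosomes whose transcripts stood higher or lower in pachytene spermatocytes than in the stages on either side were taken from RNA sequencing of mouse male germ cells. Each gene's pachytene mean was set against the average of its spermatogonia mean and its round spermatid mean, on the scale log2(FPKM + 0.1), where FPKM is fragments per kilobase of transcript per M mapped fragments. Features on chromosomes 1 to 19 entered if 3 or more libraries had 0.5 FPKM or more, which gave 17082 autosomal features of 35385 listed on these chromosomes and of 39336 listed in all. The feature nearest to the filter on the inside was Gm14154, which had at least 0.5 FPKM in exactly 3 libraries, and nearest on the outside was Foxi3, which reached 0.4999 FPKM in as many. By its title the series is about long non-coding RNA expression in spermatogenesis, and its mRNA table lists genes of every type.

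The 9 libraries fall into 3 of pachytene spermatocytes, 3 of spermatogonia and 3 of round spermatids. All came from testes of adult mice, and the spermatogonia are labelled as types A and B together. No stage carried a transgene or a treatment in the labels. Each library was made from 1 µg of total RNA with a stranded Illumina TruSeq kit and read in pairs of 100 bp. The series calls the 3 libraries of a stage biological replicates, but neither the animals behind each library nor the isolation of the cells is described in the labels, so a p-value here measures the spread between these samples, which may be technical. Of the markers of each stage, 6 of 7 for pachytene, 6 of 7 for spermatogonia and 6 of 6 for round spermatids were highest in their own stage. The exceptions were Ccna1, a meiotic cyclin, at 89.9 FPKM in pachytene but 145 FPKM in round spermatids, and Gfra1, a receptor of spermatogonial stem cells, at 5.17 FPKM in spermatogonia and 6.001 in round spermatids.

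Pachytene is the long stage of the first meiotic prophase in which homologous chromosomes are fully joined by the synaptonemal complex, programmed DNA breaks made earlier are repaired, and some become crossovers. The X and Y are silenced in a separate chromatin domain at this time, which is why the autosomes are described here. Pachytene cells also make a large class of small RNAs bound by PIWI proteins (piRNAs), switch on many genes whose products are used only in sperm, and prepare for the meiotic divisions that give round spermatids.

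Depth is not stated in the sources used here. Steps among the lowest FPKM values give rough estimates of 21.4 to 25.7 M fragments per pachytene library, 25.7 to 56.2 M per spermatogonia library and 17.8 to 25.7 M per round spermatid library. Across features, Pearson's r between the log2 profiles of 2 libraries was 0.969 to 0.986 within a stage and 0.375 to 0.864 between stages. For 588 autosomal features with at least 50 FPKM in round spermatids and under 1 FPKM in spermatogonia, pachytene was compared with round spermatids. The pachytene level was by lower quartile 8.44% and by median 12% of the round spermatid level, and 262 of them lay between 6% and 10%.

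Relative to the average of the other stages, 4133 autosomal features were higher in pachytene, 24.2% of those tested, and 4205 were lower, 24.6% (limma, adjusted p under 0.05 and a log2 difference of at least 1). The average hides different courses. Of the 4133, 1284 were called above each of the other stages alone, while 2257 were above spermatogonia with no call against round spermatids, 385 were above spermatogonia and below round spermatids, and 207 were above round spermatids with no call against spermatogonia. Of the 4205, 1427 were called below each other stage, 2005 were below spermatogonia with no call against round spermatids, and 690 were below round spermatids with no call against spermatogonia. Features that peaked in pachytene, above both other stages, thus made up 31.1% of the higher calls and 7.52% of all tested, and features with a trough there, below both, 33.9% of the lower calls and 8.35% of all tested. With equal library medians, which moved the median contrast by 0.23, the same fit called 5137 higher and 3357 lower (60.5% of calls higher, against 49.6%), with 1979 above both and 941 below both (67.8% above, against 47.4%). With quantile normalization 1406 were above both and 923 below both (60.4% above). All 1284 remained above both with equal medians and 1073 under quantile normalization, and 941 and 777 remained below both. In an alternative chosen after seeing the data, 7.34% to 7.51% of each gene's mean in round spermatids was taken off each pachytene library, which left 1188 above both and 2099 below both.

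**Figure D1:**
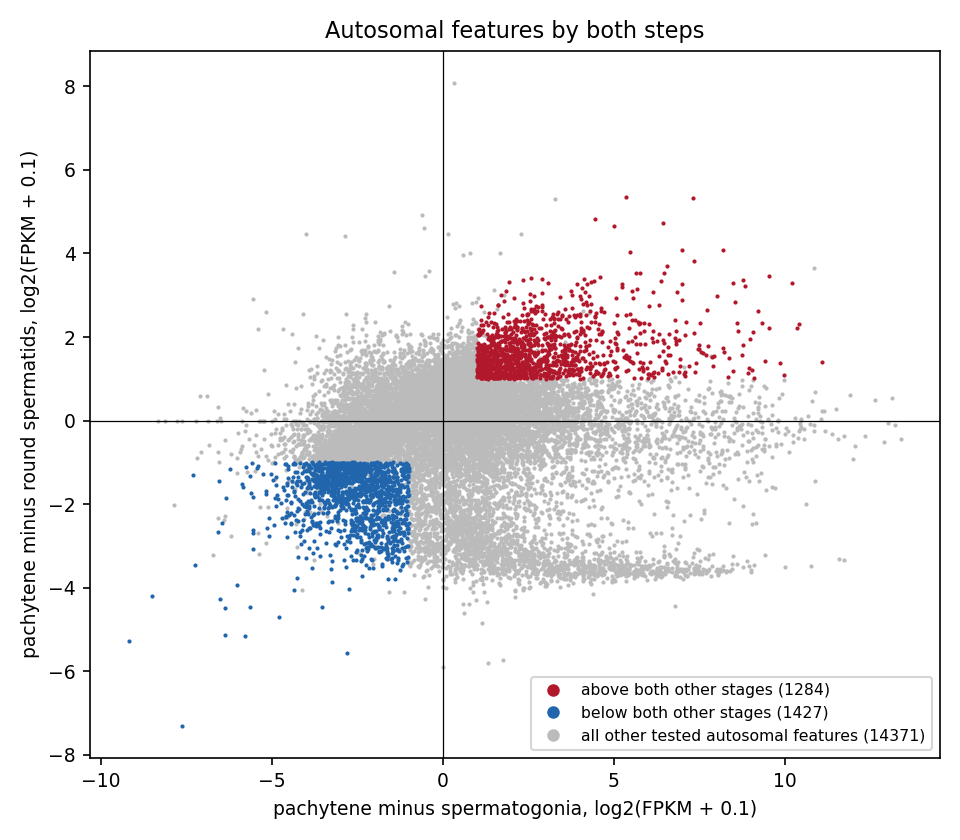
Log2 difference in log2(FPKM + 0.1) of pachytene minus spermatogonia (x) and pachytene minus round spermatids (y) for each of the 17082 tested autosomal features, as 1 point each. The 1284 features above both other stages lie at the upper right and the 1427 below both at the lower left. Points at the lower right are features that were higher in pachytene than in spermatogonia and lower than in round spermatids.

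Transcripts that peaked in pachytene were abundant ones. By median the 1284 features had 21.3 FPKM in pachytene, 3.04 in spermatogonia and 6.87 in round spermatids, and 852 had a pachytene mean of at least 10 FPKM. The smaller of their 2 log2 differences, called the smaller step here, was 1.42 by median, and it reached 4-fold in 229 and 8-fold in 37. Together they held 10.5% to 10.9% of the summed FPKM of tested autosomal features in the pachytene libraries, 1.59% to 1.93% in spermatogonia and 3.06% to 3.07% in round spermatids. In 1277 of them all pachytene libraries lay above all 6 others, and 49 were listed at 0 in every spermatogonia library. The round spermatid mean was at or above the spermatogonia mean in 1006 (78.3%). These shares and levels describe what the calls selected.

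Among features with a pachytene mean of at least 10 FPKM and no stage listed at 0 in all 3 libraries, the protein-coding gene with the largest smaller step up was Pou5f2 (chr13:78024902-78026295, plus strand, GRCm38), which encodes a POU-domain transcription factor of germ cells. It had 101, 102 and 102 FPKM in pachytene, 0.632, 0.7 and 0.736 in spermatogonia and 5.80, 6.15 and 5.75 in round spermatids. The pachytene libraries were nearly equal and stood far above the rest, by 5.55 on the log2 scale in the contrast (SE 0.0586, adjusted p = 1.94e-11) and by 4.08 over round spermatids alone. Hist1h1t (chr13:23695814-23696725, plus strand), the linker histone H1t of the testis, had 2059, 1961 and 1900 FPKM in pachytene, 25.7, 21.8 and 19.7 in spermatogonia and 171, 167 and 178 in round spermatids (contrast 4.99, SE 0.0778, adjusted p = 8.92e-11). Its 3 stages did not overlap, with round spermatids between the others.

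Mgll (chr6:88724412-88828360, plus strand), the lipase that breaks down the endocannabinoid 2-arachidonoylglycerol, had 107, 117 and 113 FPKM in pachytene, 5.54, 5.49 and 8.24 in spermatogonia and 10.8, 10.9 and 10.2 in round spermatids (contrast 3.76, adjusted p = 4.72e-09). Chst1 (chr2:92599707-92615250, plus strand), a carbohydrate sulfotransferase, had 45.5, 47.04 and 47.2 FPKM in pachytene, 0.46, 0.5 and 0.436 in spermatogonia and 4.28, 4.47 and 4.69 in round spermatids (contrast 4.86, adjusted p = 4.19e-11). Both had separate ranges in all 3 stages, and for Mgll the other stages lay close together. Sap30 (chr8:57482707-57487860, minus strand), a subunit of the SIN3 histone deacetylase complex, had 62.03, 58.8 and 59.04 FPKM in pachytene, 3.17, 2.78 and 3.46 in spermatogonia and 6.15, 5.72 and 6.66 in round spermatids (contrast 3.74, adjusted p = 3.95e-10). Stox1 (chr10:62659043-62726128, minus strand), a winged-helix DNA-binding protein, had 35.7, 29.9 and 39.04 FPKM in pachytene, 1.78, 1.89 and 1.86 in spermatogonia and 3.98, 3.48 and 4.66 in round spermatids (contrast 3.62, adjusted p = 3.15e-09). Pachytene libraries of Stox1 differed among themselves, by less than their gap to round spermatids. Rnls (chr19:33137747-33392295, minus strand), the flavoprotein renalase, had 225, 236 and 219 FPKM in pachytene, 2.88, 3.05 and 3.31 in spermatogonia and 26.8, 26.8 and 27.1 in round spermatids (contrast 4.61, adjusted p = 2.05e-11).

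The other protein-coding genes of the leading 10 under these conditions were AI467606, BC049730 and Hist2h2ab. BC049730 (chr7:24709242-24714535, plus strand) had 122, 127 and 115 FPKM in pachytene, 0.986, 0.862 and 1.01 in spermatogonia and 14.7, 14.6 and 13.4 in round spermatids (contrast 4.97, adjusted p = 3.8e-11). AI467606 was the lowest of the 10, at 9.51, 10.6 and 10.5 FPKM in pachytene, 0.527, 0.453 and 0.574 in spermatogonia and 1.12, 0.792 and 1.27 in round spermatids (contrast 3.62, adjusted p = 2.02e-08). Hist2h2ab, a core histone H2A gene, had 59.2, 66.1 and 58.3 FPKM in pachytene, with 5.99 to 9.40 in spermatogonia and 5.48 to 6.53 in round spermatids, so that the other stages overlapped. Its reads may be shared with near-identical histone genes. Pou5f2 and Mgll each share a deposited locus with 1 further feature, and Hist2h2ab is among 3 features of a locus, so their values may be split between neighbours.

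**Figure D2:**
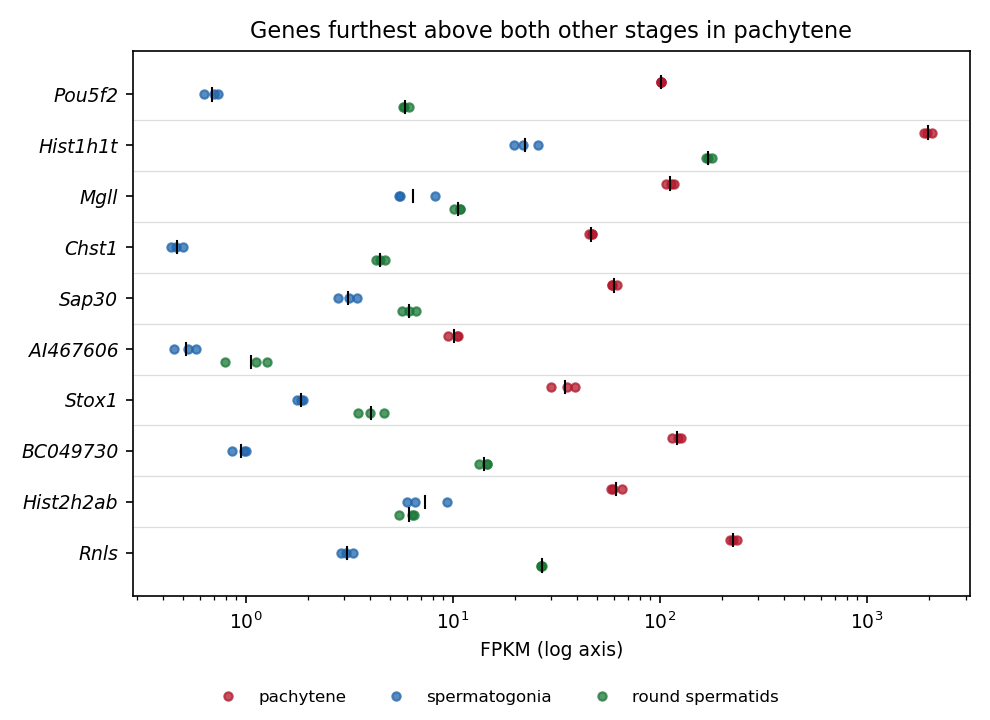
FPKM per library (log axis) of the 10 protein-coding genes with the largest smaller step up among those with a pachytene mean of at least 10 FPKM and no stage at 0, ordered by it, with pachytene above spermatogonia above round spermatids within each gene; points are libraries and black ticks are means of 3. All pachytene points lie right of every other point, from AI467606 at 9.51 to 10.6 FPKM to Hist1h1t at 1900 to 2059 FPKM.

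Non-coding features were among the peaks. Of 554 tested lincRNAs 66 were above both other stages (11.9%) and 23 below both (4.15%), of 653 processed pseudogenes 63 and 34, and of 706 antisense genes 59 and 29. Without further scaling, protein-coding genes showed the opposite balance, with 997 of 14131 above both (7.06%) and 1292 below both (9.14%). It did not hold with equal library medians, where all 1284 features remained above both and 941 of any type were below both. Types were not recounted under the alternatives. The lincRNA Gm10619 (chr7:73781429-73816503, minus strand) had 130.2, 103 and 141 FPKM in pachytene, 0.0957, 0.0506 and 0.0572 in spermatogonia and 12.03, 9.84 and 11.4 in round spermatids (contrast 6.5, adjusted p = 2.83e-10). The antisense gene Gm14244 had 135, 119 and 142 FPKM in pachytene, 0.0153, 0.00849 and 0.00736 in spermatogonia and 14.2, 12.4 and 13.3 in round spermatids (contrast 6.76, adjusted p = 2.05e-11). In both, the stages did not overlap and spermatogonia were lowest. The pseudogenes Zfp389 and Gm17187 followed the same order, with 39.5 to 47.8 and 15.4 to 23.5 FPKM in pachytene, 0.168 to 0.57 and 0 to 0.053 in spermatogonia and 3.01 to 3.73 and 0.811 to 1.81 in round spermatids. The snoRNA Gm25588 was called (contrast 5.35, SE 1.59, adjusted p = 0.0114), but 2 spermatogonia and 2 round spermatid libraries listed it at 0, and leaving out any of 7 libraries ended its call.

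The largest contrasts, among features with no stage at 0 in all 3 libraries and at least 10 FPKM in their highest stage, were not all peaks. Ldhc, the lactate dehydrogenase of the testis, had a contrast of 6.56 with 4240 ± 161 FPKM in pachytene, 0.353 ± 0.117 in spermatogonia and 4540 ± 101 in round spermatids (SD, n = 3 each), so the pachytene level did not differ from the round spermatid level beyond the test (log2 difference -0.10, adjusted p = 0.564). The lincRNA RP24-176G22.2 had the largest of them, 6.85, with 1107 to 1184 FPKM in pachytene, 0 to 0.0441 in spermatogonia and 753 to 791 in round spermatids, a log2 difference of 0.55 from round spermatids. Mroh4 likewise stood at 781 to 818 FPKM in pachytene, 0 to 0.0399 in spermatogonia and 546 to 582 in round spermatids (contrast 6.56).

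Genes of the chromosome axis and of synapsis included several peaks. Of 20 tested, 5 were above both other stages and 1 below both (25% and 5.0%, against 7.52% and 8.35% of all autosomal features), 8 were higher in the contrast and 3 lower, and the median contrast was 0.77, against 0.03 over all. Under quantile normalization 3 were above both and 2 below both, and with the spermatid share taken off 4 and 2. Sycp2 and Sycp3, which build the lateral elements of the synaptonemal complex, had 153 ± 14.2 and 268 ± 13.3 FPKM in pachytene, 21.7 ± 1.78 and 64.7 ± 5.72 in spermatogonia, and 56.1 ± 5.18 and 130.5 ± 13.3 in round spermatids (contrasts 2.13 and 1.54). Hormad1, which marks chromosome axes that have not yet synapsed, had 163, 156 and 153 FPKM in pachytene, 24.1, 22.5 and 19.8 in spermatogonia and 79.6, 64.6 and 78.8 in round spermatids. Its smaller step was 1.09, and 0.99 without round spermatid replicate 2, which ended its call. The telomere attachment gene Terb1, listed as Ccdc79, had 36.3 to 39.9 FPKM in pachytene, 3.81 to 4.78 in spermatogonia and 14.9 to 17.5 in round spermatids (contrast 2.16, adjusted p = 1.61e-08), and Tex12, of the central element, had 39.2 ± 2.74, 18.9 ± 2.57 and 16.1 ± 0.617.

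The other axis genes did not peak. Sycp1, the transverse filament of the complex, had 52.8 ± 5.04 FPKM in pachytene, 27.99 ± 2.48 in spermatogonia and 55.8 ± 7.32 in round spermatids and was not called in the contrast (0.42). Rad21l, a meiotic cohesin subunit of early prophase, was a trough, at 0.369, 0.458 and 0.503 FPKM in pachytene, 7.83, 7.69 and 6.98 in spermatogonia and 3.04, 2.78 and 3.03 in round spermatids (contrast -3.15, SE 0.104, adjusted p = 5.57e-09). Rec8, another meiotic cohesin, and Syce2, of the central element, were lower in the contrast and highest in round spermatids, with 6.23 and 43.5 FPKM in pachytene, 4.197 and 47.5 in spermatogonia and 71.1 and 166 in round spermatids. The contrast of Syce2, -1.02, lost its call with equal medians (-0.79).

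Genes of meiotic DNA breaks and strand exchange held peaks and troughs. Of 26 tested, 3 were above both and 5 below both (11.5% and 19.2%, against 7.52% and 8.35% of all), with 7 higher and 6 lower in the contrast, shares near the 24.2% and 24.6% of all, and a median of 0.31. Below both were 3 with equal medians and 2 under quantile normalization, and with the spermatid share taken off 2 were above both. Spo11, the enzyme that cuts the DNA, had 94.9, 96.3 and 91.6 FPKM in pachytene, 2.00, 1.64 and 1.32 in spermatogonia and 27.2, 25.2 and 26.7 in round spermatids (contrast 3.8, SE 0.104, adjusted p = 1.91e-09). Spata22, which works with MEIOB on single-stranded DNA, had 25.7 to 29.5 FPKM in pachytene, 4.46 to 4.65 in spermatogonia and 7.28 to 9.13 in round spermatids, and Swi5, a cofactor of strand exchange, had 392 to 415, 74.7 to 87.4 and 188 to 204. The smaller step of Swi5 was 1.03, and 0.98 with the spermatid share taken off. The 5 troughs were Prdm9, Dmc1, Mei1, Mei4 and Atm. Prdm9, the histone methyltransferase that marks where breaks form, had 1.27, 0.843 and 0.737 FPKM in pachytene, 11.1, 10.01 and 9.52 in spermatogonia and 3.54, 4.37 and 4.71 in round spermatids (contrast -2.69, adjusted p = 2.83e-07). Dmc1, the meiotic recombinase, had 1.72, 1.62 and 1.80 FPKM in pachytene, 12.6, 12.9 and 9.76 in spermatogonia and 9.77, 8.58 and 9.38 in round spermatids (contrast -2.53, adjusted p = 1.58e-08). Mei1 and Mei4, both needed for break formation, and Atm, the kinase that limits it, had 1.72 ± 0.135, 0.236 and 3.37 ± 0.79 FPKM in pachytene, 7.55 ± 0.943, 3.54 and 28.7 ± 3.38 in spermatogonia, and 4.54 ± 0.125, 0.872 and 7.17 ± 0.487 in round spermatids. The call of Mei4 ended with a pseudocount of 1 FPKM and under quantile normalization.

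Of 17 crossover genes tested, 4 were above both (23.5%, against 7.52% of all), 8 were higher and 1, the mismatch repair gene Pms2, lower in the contrast, and the median was 0.98. The count above both was 3 under quantile normalization and with the spermatid share taken off. Mlh3, the mismatch repair subunit at crossover sites, had 28.04, 26.6 and 28.7 FPKM in pachytene, 4.20, 4.44 and 4.14 in spermatogonia and 6.37, 6.02 and 7.11 in round spermatids (contrast 2.38, adjusted p = 1.76e-09). Ccnb1ip1, the ligase HEI10 that limits crossovers to designated sites, had 15.7 to 17.9 FPKM in pachytene, 5.07 to 7.17 in spermatogonia and 5.14 to 5.91 in round spermatids. Cntd1, a cyclin-like crossover factor, had 72.4 ± 0.794, 1.04 ± 0.0591 and 35.5 ± 2.53 FPKM in the same order. Cdk2, a kinase found at telomeres and crossover sites, had 77.8 to 82.8 FPKM in pachytene, 29.6 to 34.4 in spermatogonia and 15.5 to 17.6 in round spermatids, and its smaller step of 1.31 was 0.10 under quantile normalization.

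Of 25 genes of DNA damage signalling, 5 were above both and 2 below both (20% and 8.0%, against 7.52% and 8.35% of all). In the contrast 6 were higher and 3 lower, against 24.2% and 24.6% of all. Atr, the kinase that spreads the damage mark over unsynapsed chromatin, had 242, 234 and 236 FPKM in pachytene, 51.0, 54.6 and 47.8 in spermatogonia and 83.1, 80.2 and 89.9 in round spermatids, in a locus shared with 5 further features, and its smaller step of 1.49 was 0.90 under quantile normalization. Mdc1, the adaptor that binds that mark, had 72.3 ± 3.003 FPKM in pachytene, 10.1 ± 1.098 in spermatogonia and 28.2 ± 2.27 in round spermatids. Rad9b and Rad1, subunits of checkpoint clamps, were also above both. Brca1 had 4.24, 3.07 and 4.36 FPKM in pachytene, 18.9, 17.01 and 14.8 in spermatogonia and 14.1, 13.7 and 14.3 in round spermatids (contrast -1.97), and the checkpoint kinase Chek1 had 3.84, 3.63 and 4.79 FPKM in pachytene, 15.4, 14.8 and 11.6 in spermatogonia and 23.2, 24.8 and 22.7 in round spermatids (contrast -2.13). Both were therefore troughs with no overlap between pachytene and the other libraries.

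Cell division genes included peaks, while their share of troughs was near that of all features. Of 36 tested, 6 were above both and 3 below both (16.7% and 8.33%, against 7.52% and 8.35% of all). In the contrast 18 were higher and 8 lower, against 24.2% and 24.6% of all. With equal medians 9 were above both and 1 below both, and with the spermatid share taken off 4 and 5. Fbxo43, an inhibitor of the anaphase-promoting complex known as EMI2, had 36.1, 34.4 and 36.04 FPKM in pachytene, 0.434, 0.549 and 0.37 in spermatogonia and 5.06, 5.44 and 5.28 in round spermatids (contrast 4.38, adjusted p = 6.66e-10). Cks2, a small subunit of cyclin-dependent kinases, had 478, 505 and 468 FPKM in pachytene, 69.3, 64.2 and 51.9 in spermatogonia and 84.5, 76.6 and 84.7 in round spermatids (contrast 2.77, adjusted p = 4.14e-09). Pkmyt1, the membrane kinase that holds CDK1 inactive, had 29.7 to 30.7 FPKM in pachytene, 1.94 to 2.47 in spermatogonia and 12.2 to 13.7 in round spermatids. Nek2, a centrosomal kinase, and Bub1b and Bub3, of the spindle checkpoint, completed the 6. Ccna2, the mitotic cyclin A, had 3.46, 3.97 and 3.55 FPKM in pachytene, 33.02, 34.9 and 30.9 in spermatogonia and 10.2, 9.12 and 9.43 in round spermatids (contrast -2.25, adjusted p = 2.95e-09). The troughs of Cdc25b, a CDK phosphatase, and Cpeb1, a regulator of translation, had smaller steps of -1.26 and -1.31, which lost their calls with equal medians (-0.90 and -0.95).

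Among 25 regulators of meiotic gene expression, 3 were above both and 3 below both (12% each, against 7.52% and 8.35% of all). In the contrast 14 were higher and 7 lower, against 24.2% and 24.6% of all, with a median of 1.26. With the spermatid share taken off 5 were below both. Mybl1, the transcription factor A-MYB that activates pachytene genes and piRNA precursors, had 62.6, 59.5 and 57.4 FPKM in pachytene, 5.77, 7.19 and 6.02 in spermatogonia and 21.03, 20.2 and 21.7 in round spermatids (contrast 2.37, SE 0.0714, adjusted p = 3.34e-09). L3mbtl2, a chromatin reader of a Polycomb complex, had 46.2 to 47.6 FPKM in pachytene, 10.8 to 12.5 in spermatogonia and 10.7 to 11.5 in round spermatids, so that the other stages overlapped. Meioc, listed as Gm1564 and needed to stay in meiotic prophase, had 137 to 152, 20.8 to 26.4 and 55.5 to 64.9 FPKM. The troughs included genes of meiotic entry. Stra8 had 3.16, 2.72 and 3.01 FPKM in pachytene, 41.6, 40.1 and 33.3 in spermatogonia and 8.39, 7.68 and 8.57 in round spermatids (contrast -2.54, adjusted p = 6.13e-09), and its partner Meiosin, listed as Gm4969, had 1.10, 0.969 and 0.768 FPKM in pachytene, 14.4, 13.8 and 11.9 in spermatogonia and 5.51, 5.55 and 6.56 in round spermatids (contrast -3.11). The third was Prdm9.

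The piRNA pathway held the largest share of peaks among the germ cell lists, with 11 of 31 members above both (35.5%, against 7.52% of all). Below both were 2 (6.45%, against 8.35% of all). In the contrast 21 were higher and 3 lower, against 24.2% and 24.6% of all, with a median of 1.46. Piwil1, the PIWI protein that binds pachytene piRNAs, had 258, 252 and 267 FPKM in pachytene, 0.969, 0.959 and 0.781 in spermatogonia and 32.2, 33.7 and 33.03 in round spermatids (contrast 5.5, SE 0.0659, adjusted p = 2.43e-11). Tdrd5, a Tudor protein of the piRNA granules, had 105, 105 and 108 FPKM in pachytene, 7.66, 8.63 and 6.65 in spermatogonia and 16.1, 16.3 and 16.4 in round spermatids (contrast 3.24, adjusted p = 6.05e-10). For each the 3 stages were separate. Tdrd1, another Tudor protein, had 149 to 158 FPKM in pachytene, 12.1 to 14.2 in spermatogonia and 25.2 to 26.98 in round spermatids (contrast 3.01). Pld6, the mitochondrial protein that helps to cut piRNA precursors, had 118 ± 5.05 FPKM in pachytene, 7.20 ± 0.975 in spermatogonia and 20.6 ± 1.77 in round spermatids, and Henmt1, which methylates piRNA ends, had 47.5 ± 1.16, 4.26 ± 0.688 and 15.9 ± 1.81. Piwil2, Tdrd12, Tdrkh, Gpat2, Adad2 and Stk31 were above both as well, with pachytene means from 15.7 FPKM for Tdrkh to 114 for Stk31. Other members were as high in round spermatids, such as Mael, with 1195 ± 28.04 FPKM in pachytene, 71.3 ± 10.5 in spermatogonia and 1331 ± 17.8 in round spermatids. The list had 11 members above both also under quantile normalization and with the spermatid share taken off, and 13 with equal medians.

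Against the rest of that list, Tex15 and Btbd18 were troughs. Tex15 (chr8:33516738-33585582, plus strand), known for repair of meiotic breaks and for silencing of transposons in fetal germ cells, had 9.66, 10.04 and 8.53 FPKM in pachytene, 100.3, 99.2 and 82.99 in spermatogonia and 86.4, 81.5 and 94.9 in round spermatids (contrast -3.26, SE 0.0823, adjusted p = 1.25e-09). The other stages overlapped, and pachytene lay far below either. Btbd18, a nuclear factor for transcription of piRNA precursors, had 2.17, 1.78 and 1.78 FPKM in pachytene, 10.7, 10.1 and 8.46 in spermatogonia and 6.25, 4.74 and 5.75 in round spermatids, in a locus it shares with 7 further features. Piwil4, the PIWI protein of fetal germ cells, was lower in the contrast (-1.44) through spermatogonia, with 0.172 to 0.269 FPKM in pachytene, 1.60 to 2.09 in spermatogonia and 0.157 to 0.385 in round spermatids.

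The 250 bases before the start of each gene in RefSeq (GRCm38.p6) were searched on both strands for the MYB hexamers TAACTG, the form TAACGG, the form CAACTG and the form CAACGG. Of features above both other stages 870 of 1284 matched a promoter in the table, of those below both 1026 of 1427, and of all tested autosomal features 11889 of 17082. At least 1 hexamer stood in 24.9% of the matched promoters of features above both, 15.5% of those below both, 21.5% of all tested and 23.7% of all 27025 promoters of the table. The median GC content was 58.4% for features above both, 61.6% for those below both, 59.2% for all tested and 52% for the whole table, and its part in the shares was not tested. The E-box-like hexamer CACGCG stood in 15.4%, 12% and 13.4% of promoters of features above both, below both and tested, the core TGACGT of cyclic AMP response elements in 9.08%, 7.89% and 9.46%, and the core GTTGCC of RFX sites in 10%, 8.48% and 11.2%. A match is only a match of letters. The promoters of 8 genes above both are shown. They are those of the leading transcription factor and linker histone and of the 3 piRNA genes and 3 axis genes with the largest smaller steps. Of these chosen 8, 4 hold a match, which does not stand for the class (24.9%). Of the other leading genes above both, Mgll holds a match and Chst1, Sap30, AI467606, Stox1 and Hist2h2ab hold none. Of the leading genes below both, Fam198b, Wwtr1 and Plbd1 hold a match and Prss50, M1ap, Hist1h2bn and Hist1h4j hold none. The sequences read 5′ to 3′ along the gene's strand with MYB hexamers of either strand in capitals. Positions count back from the base before the start. Pou5f2 (chr13:78024652-78024901, plus strand) has 1 at -184, Piwil1 (chr5:128735996-128736245, plus strand) has 2, at -139 and -73, Tdrd5 (chr1:156303349-156303598, minus strand) has 1 at -10, and Hormad1 (chr3:95559427-95559676, plus strand) has 1 at -44. Hist1h1t (chr13:23695561-23695810, plus strand), Tdrd1 (chr19:56825959-56826208, plus strand), Sycp2 (chr2:178407659-178407908, minus strand) and Ccdc79 (chr8:104509888-104510137, minus strand) have no match in this window.
Pou5f2: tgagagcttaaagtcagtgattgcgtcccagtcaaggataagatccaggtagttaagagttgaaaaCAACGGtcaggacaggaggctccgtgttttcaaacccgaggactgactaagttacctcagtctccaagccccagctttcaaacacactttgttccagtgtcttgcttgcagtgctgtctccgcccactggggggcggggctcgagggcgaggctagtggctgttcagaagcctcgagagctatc
Piwil1: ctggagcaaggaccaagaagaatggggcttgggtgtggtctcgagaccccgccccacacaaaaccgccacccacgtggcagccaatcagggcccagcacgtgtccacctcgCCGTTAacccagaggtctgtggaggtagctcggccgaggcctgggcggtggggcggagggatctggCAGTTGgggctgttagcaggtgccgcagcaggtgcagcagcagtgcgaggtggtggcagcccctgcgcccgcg
Tdrd5: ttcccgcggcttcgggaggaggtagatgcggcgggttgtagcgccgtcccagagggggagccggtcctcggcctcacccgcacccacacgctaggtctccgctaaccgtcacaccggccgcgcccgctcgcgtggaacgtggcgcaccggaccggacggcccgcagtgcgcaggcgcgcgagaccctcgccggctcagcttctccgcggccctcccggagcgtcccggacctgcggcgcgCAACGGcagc
Hormad1: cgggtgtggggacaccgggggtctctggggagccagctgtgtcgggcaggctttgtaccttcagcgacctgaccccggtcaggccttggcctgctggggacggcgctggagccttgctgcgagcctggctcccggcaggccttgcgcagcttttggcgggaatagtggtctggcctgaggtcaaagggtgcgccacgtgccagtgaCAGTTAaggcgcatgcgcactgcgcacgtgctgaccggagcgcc
Hist1h1t: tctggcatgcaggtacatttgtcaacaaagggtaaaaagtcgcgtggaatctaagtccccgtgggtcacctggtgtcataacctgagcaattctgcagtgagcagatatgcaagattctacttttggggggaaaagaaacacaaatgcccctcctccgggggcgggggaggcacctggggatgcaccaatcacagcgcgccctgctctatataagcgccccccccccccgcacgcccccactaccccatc
Tdrd1: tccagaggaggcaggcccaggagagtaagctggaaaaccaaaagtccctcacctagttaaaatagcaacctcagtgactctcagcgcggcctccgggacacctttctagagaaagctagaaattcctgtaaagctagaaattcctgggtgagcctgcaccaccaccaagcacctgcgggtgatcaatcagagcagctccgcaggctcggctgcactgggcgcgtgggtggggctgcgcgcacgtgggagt
Sycp2: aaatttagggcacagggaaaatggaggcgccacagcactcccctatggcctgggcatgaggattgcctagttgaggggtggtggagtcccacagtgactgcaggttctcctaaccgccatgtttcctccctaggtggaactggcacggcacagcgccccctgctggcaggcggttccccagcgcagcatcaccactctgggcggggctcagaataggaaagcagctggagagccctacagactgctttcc
Ccdc79: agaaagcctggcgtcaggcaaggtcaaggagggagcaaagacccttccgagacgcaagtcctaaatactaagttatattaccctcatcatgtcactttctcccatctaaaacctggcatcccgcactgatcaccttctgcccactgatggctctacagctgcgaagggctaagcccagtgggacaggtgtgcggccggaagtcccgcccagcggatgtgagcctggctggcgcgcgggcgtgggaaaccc

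Linker histone and histone variant genes held peaks and troughs in equal number. Of 22 tested, 4 were above both (18.2%, against 7.52% of all) and 4 below both (18.2%, against 8.35% of all). In the contrast 8 were higher and 7 lower, against 24.2% and 24.6% of all. The median contrast of 0.17 was -0.04 under quantile normalization and -0.59 with the spermatid share taken off. Beside Hist1h1t, the testis H2B gene Hist1h2ba had 3267, 3541 and 3078 FPKM in pachytene, 638, 569 and 518 in spermatogonia and 1109, 1077 and 1093 in round spermatids (contrast 2.06, adjusted p = 1.85e-08). H2afy, which encodes macroH2A1, had 136 to 148 FPKM in pachytene, 27.8 to 32.1 in spermatogonia and 46.9 to 48.8 in round spermatids, and H2afz, which encodes H2A.Z, had 494 ± 37.4, 101 ± 7.80 and 220.1 ± 4.02. Of the linker histones of dividing cells, Hist1h1a, Hist1h1c and Hist1h1d were troughs, while Hist1h1b and Hist1h1e were lower in the contrast (-1.98 and -1.81) but not below round spermatids by the test. Hist1h1a had 85.9, 97.3 and 80.98 FPKM in pachytene, 1272, 1163 and 1054 in spermatogonia and 493, 492 and 465 in round spermatids (contrast -3.09, adjusted p = 1.15e-09). Hist1h1d had 4.46 to 5.08 FPKM in pachytene, 67.2 to 94.9 in spermatogonia and 18.8 to 22.5 in round spermatids, and Hist1h1c had 25.9 ± 0.833, 239 ± 23.5 and 96.2 ± 3.38. H2afy2, which encodes macroH2A2, was a trough too, at 0.715 to 0.962 FPKM in pachytene, 4.68 to 5.64 in spermatogonia and 3.89 to 4.49 in round spermatids, the opposite order to H2afy.

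Of 22 proteasome genes 1 was above both (4.55%, against 7.52% of all), Psma8, the meiotic alpha subunit. Psma8 had 354, 347 and 349.6 FPKM in pachytene, 5.24, 5.11 and 4.15 in spermatogonia and 96.3, 87.9 and 102 in round spermatids (contrast 4.02, SE 0.0779, adjusted p = 2.81e-10). The other 21 gave 2 lower calls in the contrast, the activator subunits Psme1 and Psme2, and the median of the list, 0.18, was -0.20 under quantile normalization. Of 30 genes of respiratory complexes IV and V and cytochrome c, 7 were higher and 3 lower in the contrast, against 24.2% and 24.6% of all. Cyct, the cytochrome c of the testis, was the member above both, at 255, 248 and 256 FPKM in pachytene, 7.55, 8.42 and 6.68 in spermatogonia and 104, 88.9 and 97.7 in round spermatids (contrast 3.22), while its somatic form Cycs was lower in the contrast (-1.31), at 9.11 to 10.2, 50.7 to 78.4 and 9.37 to 10.2. With equal medians 5 members of that list were above both, and 3 under quantile normalization. Of 13 autosomal copies of X-linked genes, 11 were higher in the contrast, against 24.2% of all, and 1 was above both (7.69%, against 7.52% of all). This was Cstf2t, a cleavage stimulation factor for messenger RNA ends. It had 60.2, 60.4 and 62.04 FPKM in pachytene, 14.8, 16.2 and 14.8 in spermatogonia and 20.8, 21.6 and 22.2 in round spermatids. The copies thus differed from spermatogonia more than from round spermatids. Across 65 ribosomal protein genes the median contrast was -0.04, and 0.2 with equal medians, with 1 gene called.

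Many genes of sperm structure were higher in the contrast, against 24.2% of all features, while their share above both was near or under the 7.52% of all. Of 38 flagellum genes 34 were higher and 3 above both (7.89%), of 32 acrosome genes 25 and 1, and of 17 spermatid chromatin genes 13 and 1. The flagellum peaks were axonemal dynein heavy chains. Dnah8 had 607, 541 and 653 FPKM in pachytene, 4.37, 4.25 and 3.40 in spermatogonia and 242, 243 and 246 in round spermatids (contrast 4.25, adjusted p = 3.6e-10). Dnah1 had 37.8 to 42.6 FPKM in pachytene, 0.406 to 0.556 in spermatogonia and 18.01 to 19.4 in round spermatids, and Dnah2 had 34.2 to 38.7, 1.64 to 2.16 and 15.4 to 15.9. The acrosome peak was Gopc, a Golgi protein of acrosome assembly, at 26.7 to 28.3 FPKM in pachytene, 4.63 to 5.29 in spermatogonia and 5.55 to 5.96 in round spermatids, and the chromatin peak was Gmcl1, a nuclear envelope protein of germ cells, at 191 to 201, 8.08 to 9.47 and 33.6 to 35.3. Protamine Prm1 shows the more common course, with 409 ± 48.2 FPKM in pachytene, 0.024 ± 0.0416 in spermatogonia and 4086 ± 83.8 in round spermatids. With the spermatid share taken off, the median contrast of the chromatin list was -0.53, against 2.23, that of the acrosome list 1.43, against 2.27, and that of the flagellum list 2.68, against 2.97, and the counts above both were the same 3, 1 and 1.

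**Figure D3:**
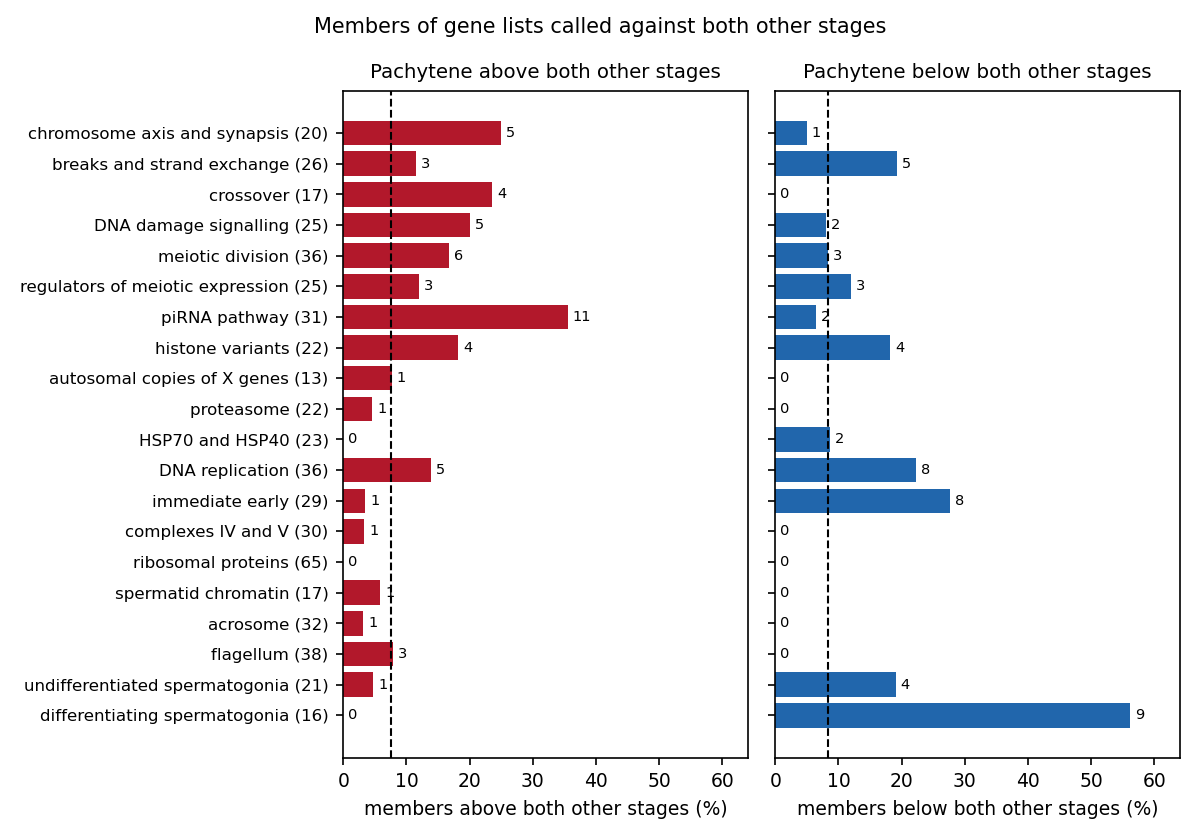
Percent of the tested members of 20 gene lists called above both other stages (left) and below both (right) in pachytene, with the number tested in brackets, the number called at each bar and a dashed line at the percent of all tested autosomal features (7.52% and 8.35%). The piRNA list has the longest bar on the left (35.5%) and the list of differentiating spermatogonia on the right, with 9 of 16 members.

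Transcripts with a trough in pachytene were low there. By median the 1427 features had 0.515 FPKM in pachytene, 4.54 in spermatogonia and 2.09 in round spermatids, and 936 had a pachytene mean under 1 FPKM. Their smaller step was -1.47 by median and reached 4-fold in 275 and 8-fold in 26. They held 0.574% to 0.596% of the summed FPKM in pachytene libraries, 4.54% to 4.90% in spermatogonia and 1.94% to 2.01% in round spermatids. The round spermatid mean was at or above the spermatogonia mean in 387 (27.1%). With a pseudocount of 1 FPKM 521 were below both.

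Dcn (chr10:97479609-97518143, plus strand), which encodes the connective tissue proteoglycan decorin, had the largest smaller step down among protein-coding genes with a mean of at least 10 FPKM in the lower of the other stages, with 0.828, 0.734 and 0.512 FPKM in pachytene, 22.95, 20.1 and 126 in spermatogonia and 17.4, 15.8 and 17.9 in round spermatids (contrast -5.05, SE 0.514, adjusted p = 1.28e-05). Spermatogonia replicate 3 stood apart from the other spermatogonia libraries. Wwtr1 (chr3:57455649-57575910, minus strand), the Hippo pathway coactivator TAZ, had 1.37, 1.09 and 1.29 FPKM in pachytene, 18.5, 22.4 and 24.4 in spermatogonia and 12.7, 13.1 and 13.4 in round spermatids (contrast -3.65, SE 0.0998, adjusted p = 1.89e-09). Fam198b (chr3:79884533-79946280, plus strand) had 0.731, 1.07 and 0.989 FPKM in pachytene, 12.6, 14.4 and 16.8 in spermatogonia and 12.8, 10.9 and 11.3 in round spermatids (contrast -3.68, adjusted p = 8.63e-09). In the last of these, spermatogonia and round spermatids overlapped.

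Several further genes shared that course, with nearly equal levels on both sides of pachytene. Plbd1 (chr6:136612070-136661928, minus strand), which encodes a phospholipase B domain protein, had 2.44, 2.57 and 3.11 FPKM in pachytene, 22.7, 26.9 and 24.2 in spermatogonia and 21.4, 21.4 and 21.6 in round spermatids (contrast -3.05, adjusted p = 1.94e-09). Prss50 (chr9:110857967-110864629, plus strand), a testis serine protease family member, had 2.40, 2.89 and 2.32 FPKM in pachytene, 21.1, 19.2 and 15.1 in spermatogonia and 18.2, 19.4 and 20.02 in round spermatids (contrast -2.84, adjusted p = 1.82e-08). M1ap (chr6:82946902-83030309, plus strand), needed for meiosis in males, had 2.18, 2.80 and 2.91 FPKM in pachytene, 23.5, 22.3 and 18.6 in spermatogonia and 18.1, 18.7 and 18.9 in round spermatids (contrast -2.88, adjusted p = 9.44e-09). In Prss50 and M1ap the other stages overlapped, as in Tex15. Of all 1427 features below both, 730 had a round spermatid mean of at least 50% of the spermatogonia mean.

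The remaining protein-coding genes of the leading 10 were core histones of the chromosome 13 cluster, which package newly made DNA in dividing cells. Hist1h4j had 19.2, 24.2 and 16.7 FPKM in pachytene, 212, 208 and 225 in spermatogonia and 122, 123 and 124 in round spermatids (contrast -3.03, adjusted p = 5.24e-09). Hist1h2bn had 5.89, 6.42 and 2.97 FPKM in pachytene, 95.04, 104 and 98.2 in spermatogonia and 30.2, 28.9 and 35.2 in round spermatids (contrast -3.5, adjusted p = 3.14e-07). Hist1h3a had 7.39, 18.8 and 17.2 FPKM in pachytene, 259, 272 and 186 in spermatogonia and 80.2, 86.9 and 79.97 in round spermatids (contrast -3.37, adjusted p = 2.42e-06). Pachytene replicates differed more here than in the peaks, and reads of these near-identical genes may be split among copies. Hist1h2br, among the lowest contrasts (-5.48), was uneven within stages, with 0.086, 0.106 and 0 FPKM in pachytene, 16.5, 9.13 and 4.25 in spermatogonia and 10.6, 39.5 and 0.303 in round spermatids. Small RNA genes below both were uneven as well. The microRNA gene Gm22692 had 0, 0 and 10.2 FPKM in pachytene, 38.5, 27.8 and 53.1 in spermatogonia and 12.8, 20.4 and 17.1 in round spermatids. The calls of the snoRNAs Gm24411, Snora17 and Gm26205 each ended without any of 2 or more single libraries, round spermatid ones among them, and that of Gm22692 without pachytene replicate 2.

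**Figure D4:**
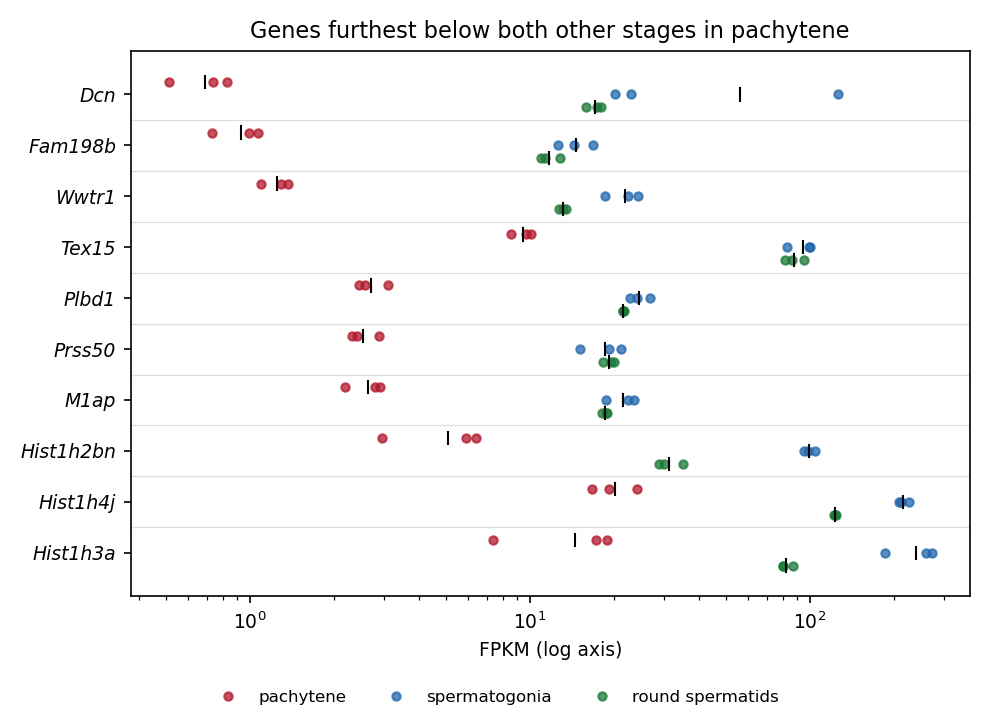
FPKM per library (log axis) of the 10 protein-coding genes with the largest smaller step down among those with at least 10 FPKM in the lower of the other stages, ordered by it, with pachytene above spermatogonia above round spermatids within each gene; points are libraries and black ticks are means of 3. Every pachytene point lies left of the other points of its gene, and Dcn has 1 spermatogonia library at 126 FPKM, far right of the others.

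DNA replication genes gave troughs and peaks. Of 36 tested, 5 were above both (13.9%, against 7.52% of all) and 8 below both (22.2%, against 8.35% of all). In the contrast 6 were higher and 10 lower, against 24.2% and 24.6% of all. The median contrast of -0.09 was 0.14 with equal medians. Under quantile normalization 2 were above both and 5 below both, and with the spermatid share taken off 3 were above both. Mcm2, of the replicative helicase, had 2.14, 2.59 and 2.75 FPKM in pachytene, 41.5, 40.2 and 32.6 in spermatogonia and 9.98, 9.78 and 9.85 in round spermatids (contrast -2.92, adjusted p = 6.66e-09). Fen1, the flap nuclease of lagging strands, had 3.14, 3.55 and 3.30 FPKM in pachytene, 25.9, 26.4 and 21.7 in spermatogonia and 16.9, 18.96 and 18.1 in round spermatids (contrast -2.62, adjusted p = 2.99e-09). Pole2, a subunit of polymerase epsilon, had 1.23 to 1.59 FPKM in pachytene, 6.02 to 7.63 in spermatogonia and 7.05 to 7.37 in round spermatids. Mcm4, Mcm5, the licensing factors Cdt1 and Orc1, and Rrm2, of ribonucleotide reductase, completed the 8. The peaks were the origin recognition subunits Orc2, Orc3 and Orc5 and the helicase cofactors Gins1 and Gins2. Gins1 had 35.97, 39.4 and 38.6 FPKM in pachytene, 9.28, 10.04 and 7.48 in spermatogonia and 15.7, 13.8 and 18.04 in round spermatids (contrast 1.67), and Orc5 had 34.3 to 35.4, 9.41 to 9.97 and 13.9 to 15.8. The peak of Orc2 (smaller step 1.15) was 0.15 under quantile normalization.

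Immediate early genes, which respond to growth factors and to stress, were mostly lower in pachytene than in spermatogonia (26 of 29), and 9 were lower than in round spermatids. Of all features 29.5% were lower than in spermatogonia and 25.3% lower than in round spermatids. Of the 29 tested, 25 were lower in the contrast (86.2% of the list, against 24.6% of all) and 1 was higher. Below both were 8 (27.6%, against 8.35% of all) and above both 1, and the median contrast was -1.9. The count below both was 6 with equal medians and under quantile normalization and 11 with the spermatid share taken off. Nr4a1, an orphan nuclear receptor, had 3.27, 3.08 and 3.85 FPKM in pachytene, 62.8, 59.5 and 54.2 in spermatogonia and 17.5, 18.3 and 18.4 in round spermatids (contrast -3.23, SE 0.0761, adjusted p = 8.62e-10). Klf2, a zinc finger factor, had 2.14, 1.58 and 1.43 FPKM in pachytene, 9.79, 9.02 and 9.06 in spermatogonia and 15.7, 17.0 and 16.96 in round spermatids (contrast -2.8), and Klf4 had 8.01 ± 0.576, 20.6 ± 1.68 and 85.8 ± 5.78, so that both were highest in round spermatids. The phosphatase gene Dusp2 had 0.275 to 0.581 FPKM in pachytene, 2.89 to 3.74 in spermatogonia and 1.63 to 2.11 in round spermatids, and lost its call with a pseudocount of 1 FPKM. Fosl1, Jund, Dusp1 and Socs3 were the other members below both. Egr4, a zinc finger factor of germ cells, went against the list, at 23.04, 25.5 and 22.8 FPKM in pachytene, 7.90, 7.99 and 5.39 in spermatogonia and 4.50, 4.75 and 3.51 in round spermatids (contrast 2.11, adjusted p = 6.72e-07). Of 23 genes of the HSP70 and HSP40 chaperones 2 were below both, a share near that of all (8.7%, against 8.35%). In the contrast 8 of the list were higher and 3 lower, against 24.2% and 24.6% of all, with a median of 0.75. The stress-induced Hspa1b was below both, at 0.361 to 0.891 FPKM in pachytene, 3.50 to 4.56 in spermatogonia and 3.65 to 3.77 in round spermatids. It may share reads with its near-identical neighbour Hspa1a. Hspa12b was the other gene below both.

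Of 16 genes of differentiating spermatogonia 9 were below both (56.2%, against 8.35% of all) and 12 lower in the contrast, against 24.6% of all. Of 21 genes of undifferentiated spermatogonia these were 4 (19.05%) and 14. Kit, the receptor of differentiating spermatogonia, had 1.81, 1.25 and 1.60 FPKM in pachytene, 21.6, 19.4 and 16.8 in spermatogonia and 5.07, 5.37 and 5.15 in round spermatids (contrast -2.63, adjusted p = 4.29e-08). Crabp1, a retinoic acid binding protein, had 2.57, 3.08 and 2.03 FPKM in pachytene, 58.0, 49.8 and 42.7 in spermatogonia and 11.7, 10.8 and 10.9 in round spermatids (contrast -3.17, adjusted p = 2.33e-08). In each, round spermatids stood between the other stages. Ccnd3, cyclin D3, differed in order, with 6.85 ± 0.575 FPKM in pachytene, 15.4 ± 0.496 in spermatogonia and 75.1 ± 5.01 in round spermatids. Dmrtb1 went against the differentiating list and was higher in the contrast (2.08). It had 349 ± 14.9 FPKM in pachytene, 14.4 ± 2.48 in spermatogonia and 476 ± 14.5 in round spermatids. Dmrtb1 made up 77.3% of the list's sum in pachytene, which was 442 to 467 FPKM, against 333 to 404 in spermatogonia. Gfra1 had 1.14, 1.24 and 1.17 FPKM in pachytene, 6.03, 5.05 and 4.43 in spermatogonia and 6.05, 6.10 and 5.86 in round spermatids (contrast -2.14, adjusted p = 5.08e-08). The count below both in the undifferentiated list was 1 with equal medians, 1 under quantile normalization and 7 with the spermatid share taken off, and the calls of Pou5f1 and Pou3f1 were among those lost. Id4, a repressor of basic helix-loop-helix factors known from spermatogonial stem cells, was above both, at 73.4, 74.5 and 77.8 FPKM in pachytene, 3.88, 4.19 and 3.03 in spermatogonia and 12.02, 11.4 and 12.96 in round spermatids (contrast 3.47, SE 0.0944, adjusted p = 1.83e-09).

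Troughs included markers of fibroblasts, macrophages and endothelial cells, while the share of Sertoli markers below both was near that of all features. Of 11 fibroblast markers 8 were below both, of 14 macrophage markers 7 and of 11 endothelial markers 3. Of 23 Sertoli markers 2 were below both (8.7%, against 8.35% of all), and 0 of 9 myoid and 0 of 4 erythroid markers were. The endothelial count was 1 with equal medians and 0 under quantile normalization, and the Sertoli count 1 and 0. Of the Sertoli markers 19 were lower than in spermatogonia and 18 higher than in round spermatids. Fibroblast markers summed to 11.4 to 13.1 FPKM in pachytene, 196 to 422 in spermatogonia and 35.6 to 37.2 in round spermatids, where Dcn made up 47%. Endothelial markers summed to 11.0 to 13.1 and 46.8 to 102 FPKM in pachytene and spermatogonia and to 18.4 on average in round spermatids, Sertoli markers to 717 to 759.7, 2708 to 3101 and 286 to 291 in the 3 stages in the same order, and myoid markers to 42.1 to 46.1, 207 to 282 and 221 to 229, the last led by Actg2 at 193 FPKM. Macrophage markers summed to 43.5 to 45.8 FPKM in pachytene, 11.01 to 74.8 in spermatogonia and 461 to 476 in round spermatids, where Aif1, at 427 FPKM, made up 91.2%. C1qc, a complement subunit gene of macrophages, stood at 0.159, 0.254 and 0.297 FPKM in pachytene, 0.701, 0.705 and 7.29 in spermatogonia and 3.10, 5.29 and 4.82 in round spermatids. Erythroid markers summed to 0.786 to 1.51, 112 to 312 and 0.928 to 1.54 FPKM, with Hba-a2 at 0 in pachytene. Spermatogonia replicate 3 was the highest in the fibroblast, endothelial, macrophage and erythroid sums. The part of other cells in the troughs was not tested, and in bulk samples fewer cells of a type cannot be told apart from less RNA per cell.

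Leydig markers were mixed. Of 12 tested, 3 were above both (25%, against 7.52% of all). In the contrast 5 were higher and 2 lower, against 24.2% and 24.6% of all, and 4 were lower than in spermatogonia, against 29.5% of all. With equal medians 5 were above both. The 2 lower ones were the metabolic enzyme genes Aldh1a1, with 18.9 ± 0.976 FPKM in pachytene, 186 ± 14.5 in spermatogonia and 8.07 ± 0.994 in round spermatids, and Akr1c14, with 0.189 ± 0.0382, 3.83 ± 0.303 and 0.183 ± 0.0684. Aldh1a1 made up 62.8% of the sum of the list in spermatogonia. Insl3, a hormone of Leydig cells, had 65.9 ± 3.79 FPKM in pachytene, 3.45 ± 0.157 in spermatogonia and 14.2 ± 4.29 in round spermatids (contrast 3.23, adjusted p = 4.67e-08). The steroid enzyme genes Cyp11a1 and Cyp17a1 had 4.89 to 5.32 and 11.8 to 12.8 FPKM in pachytene, 0.85 to 1.05 and 2.07 to 2.47 in spermatogonia, and 1.12 to 1.93 and 2.95 to 4.43 in round spermatids. The whole list summed to 201 to 212 FPKM in pachytene, 271 to 312 in spermatogonia and 75.2 to 88.1 in round spermatids, and its part in these calls was not tested. Mrc1, a macrophage receptor, was also above both, with a smaller step of 1.01 that lost its call in 5 of the alternatives.

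**Figure D5:**
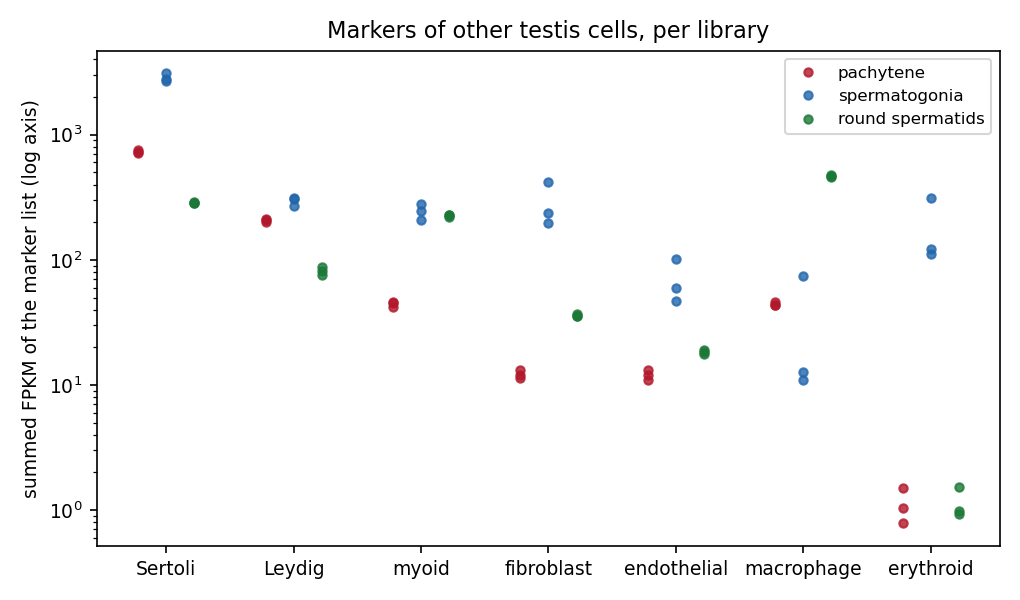
Summed FPKM (log axis) of markers of 7 other testis cell types in each library, as 1 point per library, with pachytene left of spermatogonia left of round spermatids. Pachytene sums lie below spermatogonia sums except for macrophages, and below round spermatid sums for fibroblast, endothelial, myoid and macrophage markers.

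On the X chromosome the balance was different, with 1.26% of 795 tested features above both and 34.7% below both, and a median contrast of -1.58. Among the autosomes the share above both ran from 5.01% on chromosome 18 to 8.99% on chromosome 8, and the share below both from 6.48% on chromosome 1 to 9.96% on chromosome 13, which carries the large histone cluster. Protein-coding genes above both spanned 18.97 kb by median, those below both 30.9 kb and all tested 23.6 kb. The authors' deposited tables of each stage transition list 918 of the 1284 features above both in that direction in both tables (71.5%) and 1129 of the 1427 below both (79.1%). Of all autosomal features in both of the authors' deposited tables in that direction, 2466 above and 2019 below, 37.2% and 55.9% were also called here. The thresholds differ, since the authors' features were taken by direction with no cut on size, while calls here needed a log2 difference of at least 1. Without that cut the same fit called 3707 above both and 2885 below both.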

How the data were processed

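FPKM values per gene and library were deposited by the authors in one table of 39336 features. Per the submitters' processing notes, FastQC, Trim Galore, TopHat2 2.0.12 and Cuffdiff 2.2.1 were used with the mm10 build; their options, the gene annotation and the use of strand in counting are not stated there. The q-values of the authors' deposited tables of stage transitions were not refitted, and those tables served only for the overlap given at the end. From the FPKM values, 31 features lacking a value in some library were dropped, and limma 3.58.1 in R 4.3.3 was fitted with a mean trend to log2(FPKM + 0.1) of all 9 libraries and 17987 features, with Benjamini-Hochberg adjustment over all of them, after a check on simulated data. Fold changes on this scale understate the change of low genes. Gene types came from GENCODE M21, matched by identifier for 38505 features. Calls needed an adjusted p under 0.05 and a log2 difference of at least 1, and "above both" or "below both" also needed the calls against each other stage. Genes were named by size of the smaller step, by the contrast itself, and per list up to 3 called members in each direction plus those against the list's direction; other named genes were picked with their values in view. The members and lists were chosen with earlier results of these data known. Same-numbered libraries did not deviate together, so no pairing was used. Some results are not reported here.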

Additional observations from a re-analysis of the deposited data

How the results depend on the processing

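The 4 counts of autosomal features were recomputed under each alternative. With equal library medians 1979 features were above both other stages and 941 below both, and under quantile normalization 923 were below both. A pseudocount of 1 FPKM gave 2316 lower in the contrast and 521 below both. With no threshold on the size of the difference the counts were 7360 higher, 6796 lower, 3707 above both and 2885 below both. The cause of these changes was not tested, except that the last setting calls smaller differences by construction. Leaving out 1 library at a time gave 4027 to 4170 higher, 3488 to 4194 lower, 1182 to 1302 above both and 1309 to 1402 below both. Other filters, a pseudocount of 0.01 FPKM, no mean trend and the spermatid share taken off, which was chosen after seeing the data, kept each count within 1.5 times. With the replicate block 4139 were higher, 4207 lower, 1284 above both and 1438 below both, and same-numbered libraries correlated in their deviations at -0.106 to 0.0388, with 0 of 9 libraries closest to their own number. Of the 124 genes named by rule, none changed the sign of its contrast under any alternative run, while 13 lost the call of the contrast and 25 that of the smaller step under at least 1; genes named beside these were not rerun singly. Depth, known only as a rough estimate, limits low features most.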

Other observations

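Gene families grouped by symbol after their values were seen, and therefore given without a test, are set beside the 7.52% above both and 8.35% below both of all tested autosomal features. Of 66 tested genes of the histone clusters, 5 were above both other stages in pachytene (7.58%) and 30 below both (45.5%), with a median contrast of -2.01, and reads of near-identical copies may be split among them. Of 340 Zfp genes, named for zinc fingers, 38 were above both (11.2%) and 20 below both (5.88%). Axonemal dynein heavy chains (Dnah) had 6 of 16 above both and none of the 16 below both, intraflagellar transport genes (Ift) 3 of 14 and none, and Ddx genes, which encode RNA helicases, 7 of 35 and none. Ccdc genes, named for coiled coils, had 15 of 138 above both and 4 below both.

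Some families had larger shares below both. Of 20 semaphorins, which are guidance signals between cells, 6 were below both (30.0%), of 15 Klf zinc finger factors 4 (26.7%), of 14 Ccl chemokines 5 (35.7%) and of 15 Galnt enzymes, which start O-linked glycosylation, 4, with none of these above both. The Mcm genes, mostly of the replicative helicase, had 4 of 10 below both. Pou factors split, with 4 of 11 above both and 3 below both.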
